A study of Mus musculus with 8 samples.

Results

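Cell cycle transcripts were followed as a set of 33 genes, 11 that act in DNA replication (Mcm2 to Mcm7, Pcna, Rrm2, Tyms, Ccne1 and Ccne2) and 22 that act in mitosis or mark dividing cells (Mki67, Top2a, Ccnb1, Ccnb2, Ccna2, Cdk1, Bub1, Bub1b, Aurka, Aurkb, Plk1, Birc5, Cenpe, Cenpf, Cenpa, Ube2c, Kif11, Kif20a, Tpx2, Cdc20, Cdca8 and Nusap1). They were chosen by symbol, with earlier results of these data known. All 33 were found in both deposited tables, which list 16902 genes. All 33 also passed the minimum mean of 10 normalised counts in either table and were among the 14614 genes tested.

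Epidermis was peeled from CD1 back skin after dispase treatment, and its polyadenylated RNA was sequenced in 8 libraries. The groups were Ovol1 -/- mice given IMQ (imiquimod, which inflames mouse skin), Ovol1 +/+ controls given IMQ, untreated Ovol1 -/- mice and untreated Ovol1 +/- controls. Each group held 1 library from a female and 1 from a male, so the p-values measure only the spread between these particular libraries. In genotype fits without sex, that spread consists of female minus male differences, so a difference between the sexes widens the SE. The sources used here give neither the age of the mice nor the dose and duration of IMQ. The control genotype differed between the IMQ and the untreated groups, and the labels name no Cre driver or allele beyond +/+, +/- and -/-.

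In mammalian cells the MCM proteins form the helicase that opens DNA at replication origins, cyclin E starts S phase with its kinase, and PCNA, ribonucleotide reductase and thymidylate synthase serve the moving fork. Most of these genes are switched on by E2F factors. Mitotic genes come on later, in G2, mostly through the MuvB complex with B-MYB and FOXM1, which reads a short promoter element called the cell cycle homology region (CHR), often beside CCAAT boxes bound by NF-Y. In normal epidermis dividing cells lie in the basal layer and in growing hair follicles, and inflamed, thickened epidermis is known for more of them. Ovol1 encodes a zinc-finger repressor of stratified epithelia.

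The promoters of 4 members are shown because they stand on either side of the genotype comparison under IMQ, 2 mitosis genes (Ccnb2 and Cdc20) and 2 replication genes (Mcm6 and Rrm2). Each runs 5′ to 3′ from 250 bases before to 50 bases after the RefSeq start site in GRCm38.p6, and capitals mark the letters TTTGAA (CHR), CCAAT (NF-Y) and TTTNNCGC (E2F) on either strand, with overlapping matches run together. The windows are chr9:70421505-70421804 (minus strand) for Ccnb2, chr4:118437294-118437593 (minus strand) for Cdc20, chr1:128359656-128359955 (minus strand) for Mcm6 and chr12:24708004-24708303 (plus strand) for Rrm2.
Ccnb2: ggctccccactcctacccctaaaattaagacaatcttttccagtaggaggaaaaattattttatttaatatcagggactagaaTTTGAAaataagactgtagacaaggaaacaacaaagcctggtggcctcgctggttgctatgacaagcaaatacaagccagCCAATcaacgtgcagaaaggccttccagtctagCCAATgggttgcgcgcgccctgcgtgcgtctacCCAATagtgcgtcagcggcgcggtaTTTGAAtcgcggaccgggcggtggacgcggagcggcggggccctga
Cdc20: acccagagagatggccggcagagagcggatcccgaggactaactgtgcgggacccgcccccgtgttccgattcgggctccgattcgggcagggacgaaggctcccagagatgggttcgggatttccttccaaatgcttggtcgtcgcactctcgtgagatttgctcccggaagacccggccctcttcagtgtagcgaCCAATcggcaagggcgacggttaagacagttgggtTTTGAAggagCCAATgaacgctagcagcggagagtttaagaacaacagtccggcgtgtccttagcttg
Mcm6: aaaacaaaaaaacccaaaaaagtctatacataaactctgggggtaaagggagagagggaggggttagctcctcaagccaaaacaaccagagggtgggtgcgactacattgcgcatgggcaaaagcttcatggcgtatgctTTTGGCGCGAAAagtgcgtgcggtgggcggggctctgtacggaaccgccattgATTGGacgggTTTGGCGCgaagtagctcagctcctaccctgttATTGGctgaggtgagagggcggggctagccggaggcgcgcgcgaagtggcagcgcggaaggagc
Rrm2: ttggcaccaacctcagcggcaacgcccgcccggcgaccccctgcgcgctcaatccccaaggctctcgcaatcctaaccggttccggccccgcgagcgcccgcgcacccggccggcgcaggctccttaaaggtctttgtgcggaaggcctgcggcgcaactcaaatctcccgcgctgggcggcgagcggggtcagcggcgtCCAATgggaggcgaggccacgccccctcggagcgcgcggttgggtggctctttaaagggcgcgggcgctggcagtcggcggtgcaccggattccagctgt

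Ccnb2 held 2 matches to the CHR letters and 3 to CCAAT, and Cdc20 held 1 and 2. Mcm6 held no CHR match but 3 E2F and 2 CCAAT matches, and Rrm2 held 1 CCAAT match and none to the other letters. A promoter was found for 27 of the 33 members. Promoters of chromosome 18, where Kif20a lies, were left out of the search and of the backgrounds below. The CHR letters lay in 13 of 18 mitosis members (72.2%) and in 1 of 9 replication members (11.1%), against 17.9% of 32851 promoters of the same length and 14.9% of the 13048 genes in the tables with a promoter. The E2F letters lay in 1 of 18 mitosis members (Cdk1) and in 5 of 9 replication members (Mcm3, Mcm5, Mcm6, Mcm7 and Tyms), against 5.17% of all promoters and 8.68% of those genes. CCAAT lay in 16 of 18 mitosis and 7 of 9 replication members, against 37.4% of promoters and 41.7% of genes. A match is a description of letters and says nothing of binding in these mice.

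Depth was 31.4 and 34.0 M reads in the female and male Ovol1 -/- libraries under IMQ, 33.1 and 28.6 M in the Ovol1 +/+ controls, 35.2 and 34.9 M in the untreated Ovol1 -/- libraries and 43.1 and 33.7 M in the Ovol1 +/- controls. Members had between 27 reads (Plk1) and 5439 reads (Pcna) in a library. Ovol1 itself was read in all 8 libraries and stood higher in those labelled knockout (log2 fold change 0.64, SE 0.15, limma adjusted p = 0.0880 under IMQ; 0.79, SE 0.15, adjusted p = 0.346 untreated), which does not check the genotype labels, so the Ovol1 -/- libraries are called labelled knockouts. Keratinocyte markers were abundant in every library, the 10 basal ones summing to between 496281 and 850283 normalised counts and the 10 suprabasal ones to between 417598 and 873370. Both lowest sums were those of the female IMQ labelled knockout, where the female IMQ control had 637734 and 543857. Under IMQ 7 of 10 basal and 8 of 10 suprabasal markers were lower in labelled knockouts (medians -0.17 and -0.30), beside 51.2% of all genes. The female IMQ control stood apart in other cell types, with 3033 summed normalised counts of 8 endothelial and muscle markers (162 to 445 in the other 7 libraries) and 2842 of 7 melanocyte markers (685 to 1015 in the others). Its 11 Langerhans and myeloid markers summed to 95454, against 52833 to 75751 in the other 7 libraries. Summed dermal fibroblast markers were higher in males than in females in every group, at 3740 to 9117 in the 4 female and 19720 to 82143 in the 4 male libraries. In whole epidermis fewer dividing cells and less of these RNAs per cell cannot be told apart.

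As reads per kilobase of exon and 1e6 reads (RPKM, group means), the members spanned a wide range of levels. Pcna, the sliding clamp, was the highest in every group, at 44.6 RPKM in labelled knockouts and 45.6 in controls under IMQ, and 53.2 in labelled knockouts and 52.0 in controls untreated. Next in the untreated controls came Mcm4 (10.1), Mcm6 (9.74), Rrm2 (8.94) and Mcm7 (6.76), all replication genes. The highest mitosis members there were Cdc20 at 4.88, Mki67 at 3.59 and Top2a at 3.49 RPKM. The lowest were Plk1 (0.420), Cenpf (0.486) and Bub1 (0.497). Neighbours among these low members lay closer to each other than the libraries of a group, so their order was not resolved.

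Summed over the 22 mitosis members, the level in males was nearly the same in every group and the level in females was not. The male libraries held 142 CPM (counts per 1e6 reads) in labelled knockouts and 141 in controls under IMQ, and 144 in labelled knockouts and 140 in controls untreated. Single genes within the male sums moved both ways. From untreated to IMQ male labelled knockouts, Mki67 went from 28.7 to 19.2 CPM and Cenpf from 7.08 to 2.94. Cdc20 went from 13.0 to 20.0 CPM and Cenpa from 7.02 to 15.0 between the same libraries. The female libraries held 133 CPM in labelled knockouts and 218 in controls under IMQ, and 230 in labelled knockouts and 192 in controls untreated. The 11 replication members summed to 280 CPM (female) and 309 CPM (male) in labelled knockouts against 305 and 336 CPM in controls under IMQ, and to 357 and 300 CPM in labelled knockouts against 356 and 327 CPM in controls untreated.

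**Figure D1:**
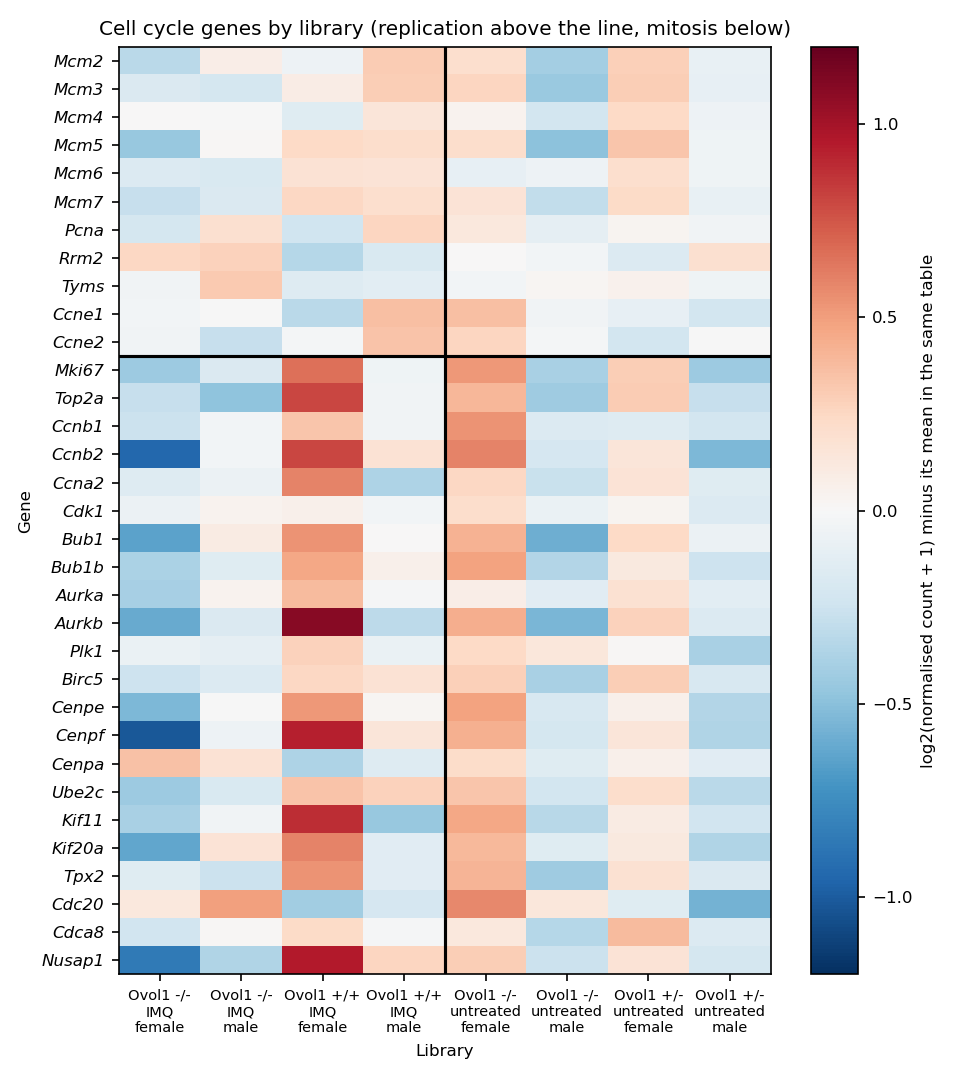
Log2(normalised count + 1) of each member (rows) in each library (columns), minus the gene's mean over the 4 libraries of the same table, with red above and blue below that mean. In the mitosis block the female IMQ control and the female untreated labelled knockout are the reddest columns and the female IMQ labelled knockout the bluest, while the replication block is paler.

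The comparison under IMQ set labelled knockouts against Ovol1 +/+ controls in treated epidermis. Of the 22 mitosis members, 20 had a lower mean in the labelled knockouts, with a median log2 difference of -0.45, beside -0.01 over all genes tested, of which 51.2% lay below 0. Of the 11 replication members, 8 were lower, with a median of -0.24, or -0.04 without the female labelled knockout, -0.06 without the male control and -0.38 without the female control. None of the 33 members passed limma at an adjusted p of 0.05, where 64 of 14614 genes did (0.438%), and edgeR called none of them, where it called 0.294% of all genes. At an unadjusted p under 0.05 there were 3 members higher (Rrm2, Cenpa and Cdc20) and 4 lower (Mcm6, Mcm7, Cenpf and Nusap1), beside 10% of all genes higher and 11.9% lower, so the members' share of 7 in 33 was near the background of 22%. With sex as a block in limma, 3 members were higher and 6 lower at that threshold, beside 1618 and 2041 of 14614 genes.

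The spindle protein gene Nusap1, whose product bundles microtubules around the chromosomes, had the lowest fitted value of the set. It lay at 52.7 normalised counts in the female and 74.2 in the male labelled knockout, against 185 in the female and 114 in the male control under IMQ. Both labelled knockouts were below both controls, and the fitted difference was -1.21 on the log2 scale (SE 0.33, limma adjusted p = 0.119, n = 2 per group). DESeq2 on recovered reads called it (-1.21, adjusted p = 0.0295) among 8.5% of all genes, and edgeR gave an adjusted p of 0.121. The gene lies at chr2:119618298-119651244 (plus strand, GRCm38).

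Cenpf, a large kinetochore protein gene of G2 and M phase, was at 48.7 (female) and 95.1 (male) normalised counts in labelled knockouts, against 191 and 110 in controls. The groups did not overlap, but the male pair was close, and the fitted log2 difference was -1.08 (SE 0.42, limma adjusted p = 0.197). It was -0.60 without the female labelled knockout and -0.68 without the female control. Ccnb2, which encodes cyclin B2, was at 27.8 and 53.3 in labelled knockouts against 95.4 and 61.7 in controls (-0.97, SE 0.45, adjusted p = 0.252). Here too the female pair lay far apart and the male pair near each other.

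Mki67, the proliferation antigen Ki-67, had 519 (female) and 622 (male) normalised counts in labelled knockouts, against 1113 and 675 in controls (-0.61, SE 0.37, adjusted p = 0.371). Top2a, the topoisomerase that untangles sister chromatids, had 783 and 680 in labelled knockouts, against 1650 and 923 in controls (-0.76, SE 0.36, adjusted p = 0.262). In both genes the female control was the library set apart, and the other 3 lay much closer together. Aurkb, the kinase of the chromosomal passenger complex, had 30.8 and 41.8 in labelled knockouts and 102 and 37.7 in controls, so its groups overlapped.

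**Figure D2:**
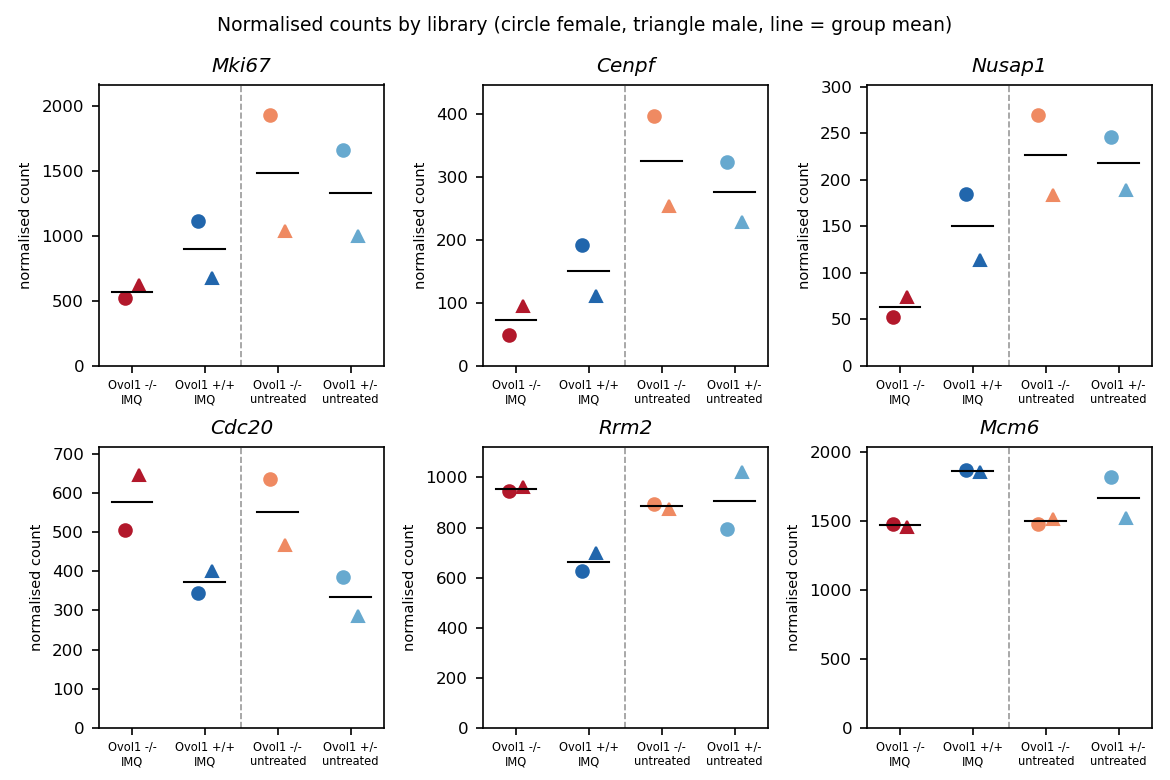
Normalised counts of 6 members in each library (circles female, triangles male, lines group means), with the IMQ table left and the untreated table right of the dashed line. For Mki67, Cenpf and Nusap1 the IMQ labelled knockouts lie below the IMQ controls, while for Cdc20 the labelled knockouts lie above the controls on both sides; the tables were scaled separately, so levels are compared within a side.

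Split by sex, the lower mitosis values lay mostly in the female pair. In females 20 of 22 mitosis members were lower in the labelled knockout, with a median log2 difference of -0.81, where 51.3% of all genes were lower. In males 11 of 22 were lower, with a median of -0.01, where 50.5% of all genes were lower. Kif11, Kif20a and Ccna2, which encode 2 mitotic kinesins and cyclin A2, lay at -1.28, -1.22 and -0.75 in the female pair and at 0.40, 0.30 and 0.30 in the male pair. Without the female control, the one with the raised endothelial, muscle and melanocyte markers, the median over the mitosis members was -0.13 and 17 of 22 were below 0. The median was -0.28 without the female labelled knockout, with 19 of 22 below 0. It was -0.63 without the male labelled knockout and -0.74 without the male control, with 20 of 22 below 0 in either case. Each of these leaves 1 sex in a group. Dermal fibroblast markers were below 0 in 10 of 11 genes under IMQ (median -1.32, with -1.93 for females and -0.66 for males). Endothelial and muscle markers were below 0 in 7 of 7 (-3.39 for females and -0.15 for males). The female and male medians were -1.52 and 0.28 for melanocyte markers and -0.64 and 0.30 for Langerhans and myeloid markers. For T cell markers they were -0.53 and -0.27. The part of those other cells in the result was not tested, nor was the difference between the pairs.

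Cdc20 and Cenpa were the 2 mitosis members with higher means in the labelled knockouts under IMQ. Cenpa, the histone H3 variant of centromeres, had 552 and 485 normalised counts in labelled knockouts against 334 and 387 in controls, a log2 difference of 0.52 (SE 0.19, limma adjusted p = 0.176). Cdc20, the activator of the anaphase-promoting complex, had 505 and 647 in labelled knockouts against 344 and 402 in controls, a log2 difference of 0.62 (SE 0.23, adjusted p = 0.187). Both labelled knockouts exceeded both controls for either gene. Over the mitosis members 2 were non-overlapping and higher and 10 non-overlapping and lower, and over the replication members 2 and 5, where 26.6% of all genes were higher and 26.4% lower in that way.

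Among replication genes most helicase subunits had lower means and both nucleotide enzymes higher means in the labelled knockouts, none past the limma test. Mcm6 had 1478 (female) and 1455 (male) normalised counts in labelled knockouts, against 1866 and 1853 in controls, and the female and male of a group lay close to each other. The fitted log2 difference was -0.34 (SE 0.12, limma adjusted p = 0.172). Mcm7 had 640 and 684 in labelled knockouts and 918 and 889 in controls (-0.45, SE 0.18, adjusted p = 0.213), Mcm5 313 and 436 against 507 and 497, and Mcm3 556 and 541 against 669 and 770. Mcm2 was also lower on average with overlapping groups, and Mcm4 had a log2 difference of 0.00.

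Rrm2, the small subunit of ribonucleotide reductase, went the other way, with 946 and 962 normalised counts in labelled knockouts against 628 and 700 in controls. The fitted log2 difference was 0.53 (SE 0.15, limma adjusted p = 0.125, n = 2 per group; DESeq2 0.56, adjusted p = 0.0377; edgeR adjusted p = 0.128). Tyms, thymidylate synthase, had 307 and 394 against 284 and 290, a log2 difference of 0.28 (SE 0.17). Pcna had 2935 and 3873 in labelled knockouts and 2867 and 4069 in controls, where the sexes lay further apart than the genotypes. Of the cyclin E genes, Ccne1 had a log2 difference of -0.04 and Ccne2 of -0.32, with 99.4 and 84.6 against 101 and 130.

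**Figure D3:**
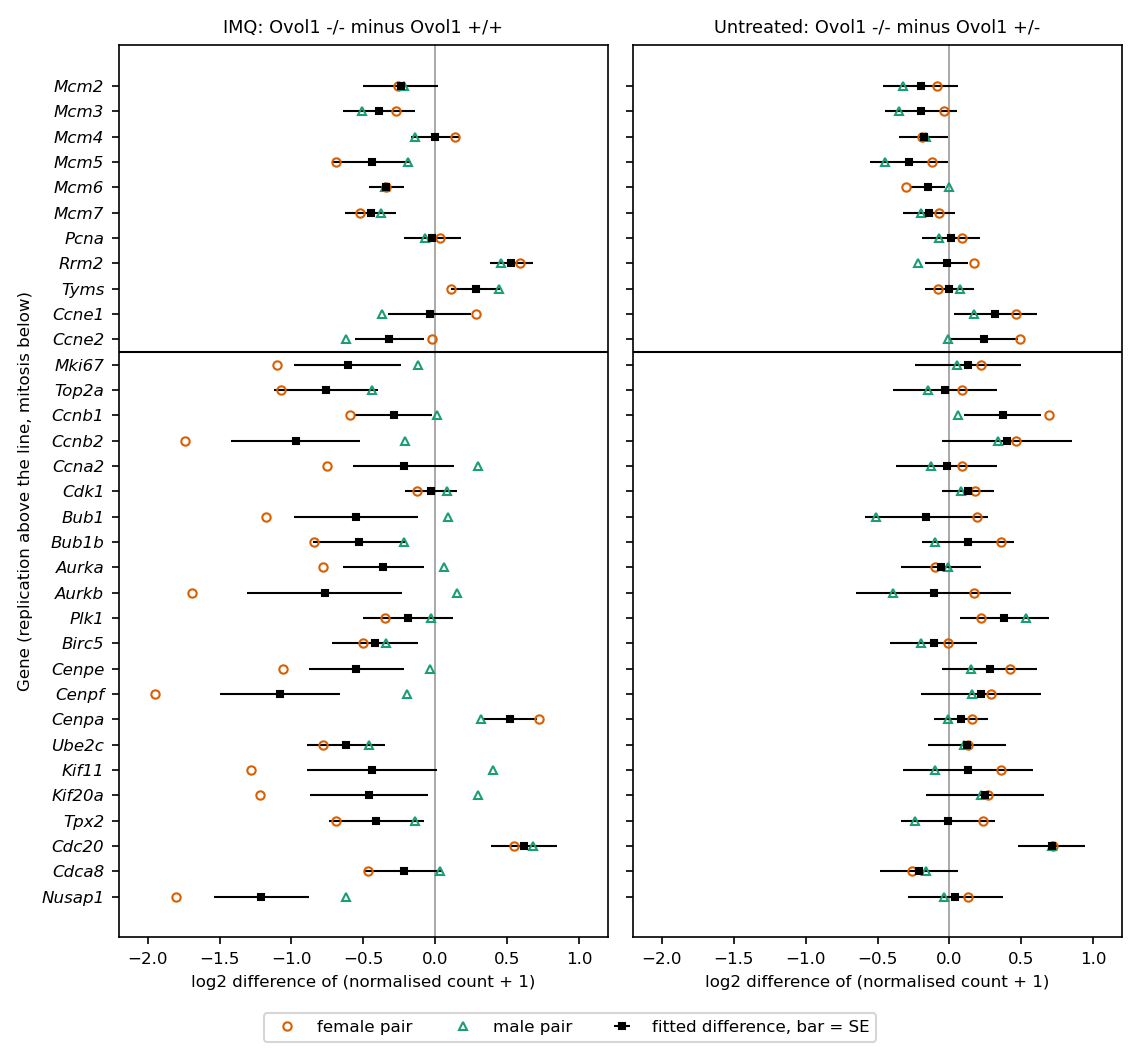
Log2 difference of labelled knockout minus control in (normalised count + 1) for each member under IMQ (left) and untreated (right), as the fitted difference with its SE (squares and bars), the female pair (circles) and the male pair (triangles). Under IMQ most mitosis members have a female pair well below 0 and a male pair near 0; Cdc20 is above 0 at all 4 pairs.

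The untreated comparison set labelled knockouts against Ovol1 +/- controls in resting epidermis. The mitosis members had a median log2 difference of 0.12, with 14 of 22 above 0, and the replication members a median of -0.14, with 8 of 11 below 0, beside -0.00 over all genes, of which 49.5% lay above and 50.5% below 0. The replication median was 0.09 without the male labelled knockout, -0.00 without the female control and -0.28 without the male control. Limma called no gene here, member or other (0.0%), edgeR none and DESeq2 89 genes (0.609%), none of them a member. At an unadjusted p under 0.05 there was 1 member, Cdc20, among 2.79% of all genes higher and 1.67% lower. Non-overlapping groups were seen for 3 members higher in labelled knockouts (Cdc20, Ccne1 and Plk1) and 1 lower (Mcm6), beside 17.4% and 16.4% of all genes.

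Cdc20 had 635 (female) and 467 (male) normalised counts in untreated labelled knockouts, against 385 and 286 in controls, a log2 difference of 0.71 (SE 0.23, limma adjusted p = 0.876). Ccne1, cyclin E1, had 183 and 138 in labelled knockouts against 133 and 122 in controls (0.32, SE 0.29). Plk1, polo-like kinase, had 45.6 and 42.2 against 38.9 and 29.0 (0.38, SE 0.31). The count of mitosis members above 0 turned with the library left out. It was 3 without the female labelled knockout, 22 without the male labelled knockout, 21 without the female control and 7 without the male control. Each of these counts sets 1 sex in a group against both sexes in the other. Females exceeded males in 22 of 22 mitosis members in both untreated groups, so library and sex cannot be told apart here.

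The genotype difference under IMQ minus that untreated was below 0 in 21 of 22 mitosis members, with a median of -0.61 on the log2 scale, where 52.7% of all genes lay below 0. The exception was Cenpa (0.45). In the female pair the median was -1.19 and in the male pair -0.03. The replication members had a median of -0.16, whose sign turned without the female labelled knockout of either table (0.16 untreated, 0.08 IMQ) or the male untreated control (0.01). Limma called none of the 33 members and no other gene for this difference (0.0%), and edgeR called none, while DESeq2 called 99 genes (0.677%) and no member. At an unadjusted p under 0.05, Rrm2 (0.55, SE 0.21, adjusted p = 0.476) and Nusap1 (-1.25, SE 0.47, adjusted p = 0.476) passed, beside 4.05% of all genes above and 6.02% below 0. The difference sets the labelled knockouts against +/+ in the IMQ table and +/- in the untreated table, so treatment and control genotype cannot be told apart.

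Across the 4 sex-matched pairs, Cdc20 was the only member higher in the labelled knockout every time, by 0.55 and 0.68 (female and male, IMQ) and 0.72 and 0.71 (untreated). Of all genes, 10.7% were higher in all 4 pairs, beside this 1 of 33 members, and 0.766% (112 genes) by more than 0.5 in each. The cut of 0.5 was used for this count only and lies just below the smallest Cdc20 pair (0.55). The smaller share therefore does not measure how unusual Cdc20 is. Members lower in all 4 pairs were Mcm2, Mcm3, Mcm5, Mcm6, Mcm7 and Birc5 (survivin, of the passenger complex), beside 12.5% of all genes. Mcm6 owes its place to a male untreated pair of 1516 against 1519 normalised counts, a log2 difference of -0.00, and Birc5 to a female untreated pair of 141 against 142 (-0.01). The same 4 labelled knockout and 4 control libraries underlie each of these counts, and limma called no member in either genotype comparison.

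Cdc20 shares exon positions with Elovl1, a fatty acid elongase gene on the opposite strand, which is read far more. Elovl1 had 16354 and 16566 normalised counts in labelled knockouts against 11569 and 15299 in controls under IMQ (log2 difference 0.31), and 21703 and 22541 against 18494 and 22546 untreated (0.12). The libraries were made with a stranded kit, but the strand setting used in counting is unknown here, so a part of the Cdc20 counts that comes from Elovl1 was not tested. Of the other members, Mcm7, Ccne2, Ccna2, Ube2c, Kif20a, Cdca8 and Nusap1 also share exon positions with a gene on the opposite strand. Under IMQ the 2 partners of Mcm7, Cops6 and Ap4m1, had log2 differences of 0.43 and -0.28, beside -0.45 for Mcm7. Cdc23, Ints8, Exosc9 and 9930104L06Rik, the partners of Kif20a, Ccne2, Ccna2 and Cdca8, had 0.26, 0.38, 0.29 and 0.45. Each of them had more normalised counts than its member in every IMQ library, and their part in the members' counts was not tested. The partner of Ube2c, Tnnc2, had at most 2.59 normalised counts in a library. The partner of Nusap1, Oip5, had at most 33.3 normalised counts in a library.

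Set by sex within each group, mitosis members were higher in females than in males in 3 of the 4 groups. Females exceeded males in 22 of 22 members in untreated labelled knockouts (median log2 difference 0.66), in 22 of 22 in untreated controls (0.41) and in 20 of 22 in IMQ controls (0.51). In IMQ labelled knockouts they did so in 4 of 22 (-0.26). Over all genes females were higher in 49.0% and 49.5% in the untreated labelled knockouts and controls, in 51.6% in the IMQ labelled knockouts and in 47.1% in the IMQ controls. The replication members had medians of 0.28 and 0.26 in untreated labelled knockouts and controls, and of -0.03 and -0.20 in the IMQ labelled knockouts and controls.

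Fitted over the 4 groups, the female minus male difference was above 0 in all 22 mitosis members (median 0.27, beside 0.00 over all genes, of which 50.3% lay above 0) and had a median of 0.05 over the replication members. Limma called no member, where 21 of all genes passed (0.144%), and edgeR called no member, where it called 0.116%. At an unadjusted p under 0.05, 3 members were higher in females (Top2a, Tpx2 and Mki67) and none lower, beside 5.33% of all genes higher and 7.3% lower. Top2a had a log2 difference of 0.61 (SE 0.12, limma adjusted p = 0.159), and DESeq2 called it (0.62, adjusted p = 0.00352) among 3.09% of all genes. It was higher in the female in 4 of 4 groups, at 783 against 680 (IMQ labelled knockouts), 1650 against 923 (IMQ controls), 1479 against 835 (untreated labelled knockouts) and 1386 against 929 normalised counts (untreated controls). Tpx2, a spindle assembly factor gene, had 0.49 (SE 0.16, adjusted p = 0.292) and Mki67 0.52 (SE 0.19, adjusted p = 0.342). The fibroblast markers moved with sex in the opposite sense, and their part in the difference was not tested; with 1 animal label per sex and group, sex and the individual library cannot be told apart.

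**Figure D4:**
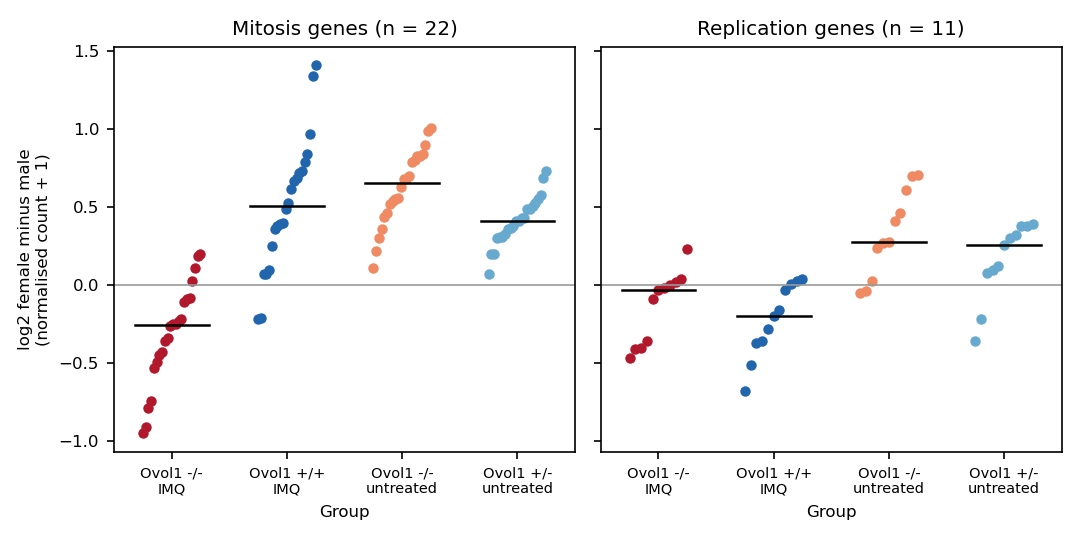
Log2 female minus male difference in (normalised count + 1) of each of the 22 mitosis members (left) and 11 replication members (right) in each group, with lines at the medians. All mitosis points of the untreated groups lie above 0, and those of the IMQ labelled knockouts lie mostly below 0 with a median of -0.26.

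IMQ was set beside untreated epidermis as log2(CPM + 0.5), without a test, because the tables were scaled separately and the control genotype differed. In labelled knockouts the mitosis members had a median difference (IMQ minus untreated) of -0.33, with 16 of 22 lower under IMQ, and in controls a median of 0.10, with 13 of 22 higher. Single libraries turned both signs: the labelled knockout median was 0.03 without the untreated female, and the control median was -0.30 without the IMQ female and -0.06 without the untreated male. Over all genes the medians were -0.11 in labelled knockouts and -0.03 in controls. Of the hair matrix and shaft markers, 11 of 11 were lower under IMQ in labelled knockouts (median -0.80) and 10 of 11 in controls (median -0.56). The part of hair follicle content in the mitosis values was not tested. The replication members had medians of -0.26 in labelled knockouts and -0.22 in controls. With the deposited values side by side, where all genes shift by -0.32 in labelled knockouts and -0.26 in controls, the mitosis medians were -0.58 and -0.11, so the sign in controls turns with the scaling.

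The member with the most negative difference in labelled knockouts was Cenpf, with 1.56 (female) and 2.94 (male) CPM under IMQ against 10.8 and 7.08 untreated (log2 difference -1.80), and with 6.29 and 3.36 against 8.70 and 6.29 in controls (-0.63). Ccnb2 had 0.893 and 1.65 CPM under IMQ against 6.67 and 3.87 untreated in labelled knockouts (-1.69), and 3.14 and 1.89 against 4.76 and 3.03 in controls (-0.55). Nusap1 (-1.43), Kif20a (-1.18), Mki67 (-1.10) and the checkpoint kinase gene Bub1b (-1.06) followed in labelled knockouts, where the controls had -0.31, -0.59, -0.34 and -0.44. In each of these 6 genes both labelled knockout libraries under IMQ lay below both untreated ones.

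Other members lay higher under IMQ in both genotypes. Cenpa had 17.7 and 15.0 CPM under IMQ against 8.89 and 7.02 untreated in labelled knockouts (1.00), and 11 and 11.9 against 7.8 and 7 in controls (0.60). Cdk1, the kinase that drives entry into mitosis, had log2 differences of 0.38 in labelled knockouts and 0.56 in controls, and Plk1 0.17 and 0.60. Ube2c, the ubiquitin-conjugating enzyme of the anaphase-promoting complex, had 8.70 and 7.69 CPM under IMQ against 5.18 and 3.68 untreated in controls (0.83) and a difference of 0.12 in labelled knockouts. Among replication genes Mcm6 was 0.16 higher in labelled knockouts and 0.38 in controls, and Ccne1 had differences of -0.82 in labelled knockouts and -0.47 in controls. Non-overlapping values were found for 5 members higher and 12 lower in labelled knockouts, beside 34.9% and 44.8% of all genes, and for 8 higher and 7 lower in controls, beside 32.2% and 34.7%.

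**Figure D5:**
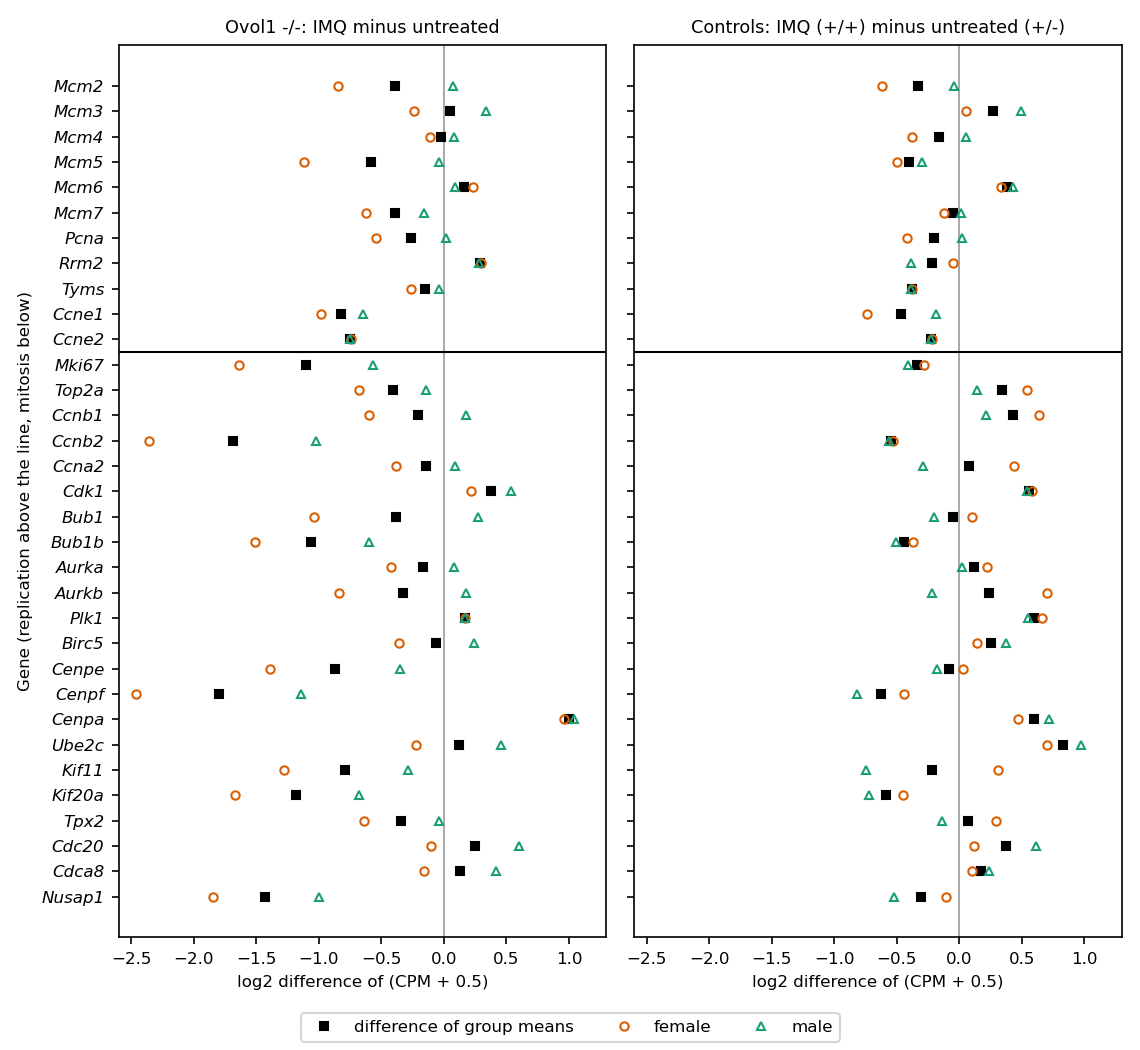
Log2 difference in (CPM + 0.5) of IMQ minus untreated for each member in labelled knockouts (left) and controls (right), as the difference of group means (squares), females (circles) and males (triangles). Cenpf, Ccnb2 and Nusap1 are furthest left in labelled knockouts and Cenpa furthest right.

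The wider cell cycle machinery was read from 7 lists of other genes, and limma called none of their members in any genotype comparison, with 0.438% of all genes called under IMQ and 0.0% untreated. Of the 131 genes tested, 11 were higher and 24 lower at an unadjusted p under 0.05 under IMQ, and 2 higher and 0 lower untreated. Over all genes these shares were 10% and 11.9% under IMQ and 2.79% and 1.67% untreated. In these lists edgeR called 0, and DESeq2 called 4 higher and 5 lower under IMQ, where it called 8.5% of all genes, and 1 higher untreated, where it called 0.609%. The 25 genes of the spindle, condensin and cytokinesis list all had negative differences under IMQ (median -0.47, with -1.02 for the female pair and -0.13 for the male pair) and were mixed untreated (median 0.07, 16 of 25 above 0). Espl1, which encodes separase, had 131 and 156 normalised counts in IMQ labelled knockouts against 384 and 287 in controls (-1.21, SE 0.23, limma adjusted p = 0.0714, DESeq2 adjusted p = 0.000986). Prc1, a midzone microtubule bundler gene, had 166 and 218 against 414 and 356 (-1.01, SE 0.32, adjusted p = 0.142). Of the 20 kinetochore and spindle checkpoint genes 14 were below 0 (median -0.37), Cenpi at -0.74 (SE 0.19, adjusted p = 0.105) and Bub3 at 0.40 (SE 0.12, limma adjusted p = 0.132, DESeq2 adjusted p = 0.0479).

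Of 27 replication fork and nucleotide genes 22 were lower in labelled knockouts under IMQ (median -0.31) and 24 untreated (median -0.18). Over all genes 51.2% lay below 0 under IMQ and 50.5% untreated. By sex, the medians of this list were -0.40 (female) and -0.22 (male) under IMQ, and -0.11 and -0.28 untreated. Rpa1, which encodes a subunit of the single-strand DNA binding complex, had 777 and 867 normalised counts in IMQ labelled knockouts against 1145 and 1082 in controls (-0.44, SE 0.11, limma adjusted p = 0.108). The 18 origin licensing and firing genes split 8 above and 10 below 0 under IMQ, with Orc2 at 0.45 (SE 0.14, adjusted p = 0.139) and Cdc45 at -0.62 (SE 0.23, adjusted p = 0.179).

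Upstream regulators gave mixed values under IMQ. Of 19 RB and E2F regulators 12 were below 0 (median -0.18). E2f2 had 24.9 and 83.7 normalised counts in labelled knockouts against 151 and 142 in controls (-1.66, SE 0.51, limma adjusted p = 0.137, DESeq2 adjusted p = 0.0411), and Tfdp2, an E2F partner gene, -0.93 (SE 0.27, limma adjusted p = 0.126, DESeq2 adjusted p = 0.0181). E2f1 lay at -0.57 (SE 0.29) and Foxm1 at -0.47 (SE 0.38), with 77.5 and 107 against 156 and 103. Of 14 G1 cyclins, kinases and their drivers 8 were below 0 (median -0.12), with Ccnd3, cyclin D3, at -0.42 (SE 0.12, adjusted p = 0.128) and Myc at -0.26 (SE 0.25). Id1, an inhibitor of differentiation factors, had 5487 and 7722 in labelled knockouts against 2451 and 3718 in controls (1.11, SE 0.25, limma adjusted p = 0.0878, or 0.0200 with sex as a block, DESeq2 adjusted p = 0.00116).

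A list of 7 CDK inhibitor genes and Trp53, which encodes the p53 transcription factor, had 5 of 8 genes above 0 under IMQ (median 0.07) and 6 of 8 untreated (median 0.10), Trp53 itself at -0.21 and 0.13. Cdkn2a, which encodes p16INK4A and p19ARF from overlapping frames, was low in controls and higher in labelled knockouts in both tables. It had 29.8 and 101 normalised counts in labelled knockouts against 10.1 and 7.99 in controls under IMQ (2.49, SE 0.66, limma adjusted p = 0.110, DESeq2 adjusted p = 0.00665), and 49.7 and 77.3 against 5.18 and 12.9 untreated (2.77, SE 0.66, limma adjusted p = 0.479, DESeq2 adjusted p = 0.0495). Its neighbour Cdkn2b had 481 and 630 against 843 and 936 under IMQ (-0.69, SE 0.24, adjusted p = 0.166). Cdkn1a, which encodes p21, had log2 differences of 0.01 under IMQ and 0.05 untreated.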

How the data were processed

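Per the labels' protocols, polyadenylated RNA of dispase-separated epidermis was made into stranded libraries and read as paired ends. The submitters' processing notes name Trimmomatic 0.35, STAR 2.5.2a, DESeq2 1.24.0 with R 3.6.1, and the mm10 build; which program counted reads, on which annotation and with which gene filter is not stated there or in the labels. Deposited values are signal in unit-free form, read counts that the authors scaled by a size factor for each library, separately for the IMQ and the untreated table, and are called normalised counts in the text. Every value of each library was a whole multiple of 1 step within 0.001 read (100% of values), which gave recovered reads and the depth; counting error limits the lowest members, such as Plk1 with 27 reads in a library.

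From these, limma 3.58.1 (trend, robust; R 4.3.3) was run on log2(normalised count + 1) for 14614 genes with a mean of at least 10 in either table, with 4 group means over 8 libraries (4 residual degrees of freedom) and Benjamini-Hochberg adjustment over all genes, threshold 0.05. Fold changes are on this scale, which understates low genes. Female minus male used group means plus sex. An exact two-sided permutation test of 2 against 2 cannot go below 0.333 and was not used. Replicate numbers follow sex, and female minus male deviations correlated between groups at 0.145 to 0.463 across genes; sex as a block therefore stands as an alternative. IMQ against untreated used log2(CPM + 0.5) of recovered reads. RPKM used summed exon length in GENCODE vM21 (GRCm38), which also gave gene positions and overlaps; promoters came from RefSeq. edgeR 4.0.16 and DESeq2 1.42.0 on recovered reads, other pseudocounts, filters and scalings, each table alone and each library left out were alternatives. The pipeline was also run on simulated counts with no difference between the sexes. That run does not measure how many differences are missed or falsely called in these libraries. Plots and tables used Python 3.11.15, numpy 2.4.6, pandas 2.3.3 and matplotlib 3.10.9.

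Members and lists were chosen with earlier results of these data known. All members are named, with Ovol1, Myc, Cdkn1a, Foxm1 and E2f1, and from each pathway list up to 2 genes with the smallest unadjusted p under 0.05 in a genotype comparison; 1 gene that met this rule is not reported here.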

Additional observations from a re-analysis of the deposited data

How the results depend on the processing

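Counts of members called stayed at 0 in all 4 comparisons under pseudocounts of 0.5 and 5, no filter or a mean of at least 50, TMM scaling, edgeR and each library left out, and in both genotype comparisons with each table fitted alone. DESeq2 called 2 members under IMQ (Nusap1 and Rrm2) and 1 by sex (Top2a). With sex as a replicate block limma and edgeR also called 0 members (smallest limma adjusted p 0.0712 under IMQ for Top2a, 0.705 untreated, 0.346 for the difference), although limma's count over all genes under IMQ was 358, against 64 without the block; the block changed no call of a member and, in the pathway lists, called Id1 and Kif4 (adjusted p = 0.0465). Leaving out each library in turn gave these ranges of the median log2 difference: mitosis members -0.74 to -0.13 under IMQ, -0.20 to 0.40 untreated, -0.97 to -0.22 for the difference of genotype effects and 0.15 to 0.54 for female minus male; replication members -0.38 to -0.04, -0.28 to 0.09, -0.34 to 0.16 and -0.10 to 0.16 in the same order. The median IMQ minus untreated ranged from -0.71 to 0.03 (mitosis) and -0.41 to -0.09 (replication) in labelled knockouts, and from -0.30, without the female IMQ control, to 0.34 (mitosis) and -0.34 to -0.13 (replication) in controls. Counts added after seeing the data ranged from 17 to 20 mitosis and 6 to 9 replication members below 0 under IMQ, 3 to 22 mitosis members above 0 untreated and 21 to 22 by sex. Each library left out also left its group with 1 sex, so its shift cannot be told apart from a difference between the sexes. Other causes of these shifts, beyond fewer libraries, were not tested. With 2 libraries per group, a lone library was assumed to vary like the other groups.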
